A study of Mus musculus with 8 samples.

Results

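The extracellular matrix genes described here were 57 of the 8251 genes measured in mouse pancreas. They were chosen by gene name, with no value in the rule but with earlier results of these data known: every collagen chain and every laminin chain whose probe set carried a single gene symbol, with decorin, periostin, lumican, biglycan, fibronectin, Sparc, fibrillins, fibulins, elastin, tenascin C, nidogen, lysyl oxidase, matrix Gla protein and the inhibitors Timp1 to Timp3. Where a gene had several probe sets, the one with the highest mean over the arrays stood for it. Fbn1, which the same choice names, was not among the genes with a probe set of their own and was not analysed here.

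RNA of whole pancreas from mice aged 3 weeks was measured on 8 Affymetrix arrays, 2 for each of 4 genotypes. The NOD strain is inbred and becomes diabetic by autoimmunity. NOD.scid is the same strain with the scid mutation of Prkdc, so that mature T and B lymphocytes are missing. BDC2.5/NOD carries the T cell receptor transgene of a CD4 T cell clone reactive to islets, and BDC2.5/NOD.scid carries both the transgene and the scid mutation, so that its T cells bear only the transgenic receptor. No group received a treatment that the labels name, and the NOD background was common to all 4. Per the labels, each RNA was a pool of 2 isolations, each from 6 animals. The labels do not say if a group's 2 arrays hold different pools, so the p-values cover only the spread between such arrays, which could be technical.

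Collagens are triple helices of 3 chains. Collagen I (Col1a1, Col1a2), III (Col3a1) and V (Col5a1, Col5a2) form the fibrils of connective tissue, whereas collagen IV and the laminins build the basement membranes under acini, ducts, islets and vessels, where nidogen links them. Decorin and lumican are small leucine-rich proteoglycans that coat collagen fibrils, and periostin is a matricellular protein that binds them. In the pancreas most fibrillar collagen comes from fibroblasts and stellate cells, and young animals are still laying down matrix as the organ grows.

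In both backgrounds the matrix genes that passed the test with the transgene went down. With the transgene, 12 of the 57 genes were lower in NOD, where 4.56% of all genes were lower, and 9 were lower in NOD.scid, where 4.51% were. None was higher in either, where 4.16% and 2.46% of all genes were. In both backgrounds 8 of the 57 genes fell, where 1.18% of all genes did: Col1a1, Col1a2, Col3a1, Col6a3, Eln, Lum, Mgp and Postn. None of the 9 laminin chains passed the test in any comparison. Decorin fell 2.74-fold with the transgene in NOD, and in NOD.scid its difference was 0.14 on the log2 scale.

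Promoter sequences were available for 4 of the 8 genes that fell in both backgrounds, and these are shown because the genes moved together. The RefSeq promoter table for GRCm38.p6 matched 37 of the 57 genes with 44 entries, and the 250 bases before each annotated start are given 5′ to 3′ on the strand of the gene. Capitals mark 4 short motifs on either strand: the TATA box letters TATAAA, the CCAAT box letters CCAAT, the GC box letters GGGCGG and the SMAD-binding letters CAGAC, which read GTCTG on the other strand. None of the 4 motifs overlapped another in these windows.
Col1a2, chr6:4505368-4505617, plus strand: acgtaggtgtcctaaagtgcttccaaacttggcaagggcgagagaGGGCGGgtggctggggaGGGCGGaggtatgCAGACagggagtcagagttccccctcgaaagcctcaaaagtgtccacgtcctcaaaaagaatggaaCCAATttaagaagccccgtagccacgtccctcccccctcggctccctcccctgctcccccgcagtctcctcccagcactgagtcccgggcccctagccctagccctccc
Col3a1, chr1:45311288-45311537, plus strand: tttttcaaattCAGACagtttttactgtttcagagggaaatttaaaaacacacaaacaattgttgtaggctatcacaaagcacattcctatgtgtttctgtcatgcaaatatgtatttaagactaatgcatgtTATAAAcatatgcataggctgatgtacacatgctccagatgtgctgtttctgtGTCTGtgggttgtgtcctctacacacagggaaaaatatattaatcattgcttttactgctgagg
Col6a3, chr1:90843972-90844221, minus strand: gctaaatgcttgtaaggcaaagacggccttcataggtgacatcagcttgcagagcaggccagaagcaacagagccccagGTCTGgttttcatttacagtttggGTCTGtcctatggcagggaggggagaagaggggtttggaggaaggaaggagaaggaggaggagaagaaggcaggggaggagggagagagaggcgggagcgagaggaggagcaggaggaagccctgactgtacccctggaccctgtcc
Postn, upstream start, chr3:54359017-54359266, plus strand: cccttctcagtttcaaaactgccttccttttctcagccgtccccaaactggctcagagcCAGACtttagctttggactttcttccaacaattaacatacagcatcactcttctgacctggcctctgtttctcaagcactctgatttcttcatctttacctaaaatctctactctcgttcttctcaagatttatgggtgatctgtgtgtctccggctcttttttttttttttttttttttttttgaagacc
Postn, downstream start, chr3:54360857-54361106, plus strand: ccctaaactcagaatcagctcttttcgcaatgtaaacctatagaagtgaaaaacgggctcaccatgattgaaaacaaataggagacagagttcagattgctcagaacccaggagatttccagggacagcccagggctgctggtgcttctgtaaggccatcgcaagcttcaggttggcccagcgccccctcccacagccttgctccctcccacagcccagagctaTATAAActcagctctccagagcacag

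Over all 32851 promoter entries, 12.4% of the windows of this length held TATAAA, 33.8% held CCAAT, 32.7% held GGGCGG and 42.2% held CAGAC. Of the 44 entries of the matrix genes, 8 (18.2%) held TATAAA, 13 (29.5%) held CCAAT, 23 (52.3%) held GGGCGG and 24 (54.5%) held CAGAC. The window of Col1a2 held 2 GC boxes, beginning 205 and 188 bases before the start, 1 SMAD-binding motif at 175 and 1 CCAAT box at 109. The Col3a1 window held SMAD-binding motifs at 239 and 64 and TATAAA at 117, the Col6a3 window held SMAD-binding motifs at 171 and 147, and the downstream Postn start had TATAAA at 26. These are letter matches, not bound sites.

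Values are the deposited levels on a log2 scale, on which a difference of 1 is a doubling, and levels of different probe sets are not set against each other. A gene passed the test at an adjusted p under 0.05 from limma, fitted over all 12422 probe sets. The mean level was above the median of all probe sets (4.27) for 38 genes and at or below it for 19, including 5 of the 10 laminin and nidogen genes and 7 of the 18 collagens outside the fibrillar and collagen IV classes. The 2 arrays of a group differed, over the 57 genes, by a median of 0.11 for NOD, 0.14 for NOD.scid, 0.09 for BDC2.5/NOD and 0.14 for BDC2.5/NOD.scid. The BDC2.5/NOD pair was the closest, with 1 gene more than 0.3 apart against 4, 11 and 5 in NOD, NOD.scid and BDC2.5/NOD.scid. The acinar markers Cela1, Cela2a, Ctrb1 and Cel were present at a summed linear level of 38703 to 41158 on every array and 0 of these 4 passed the test in either transgene comparison. These probe sets lay at the top of the scale, where Ctrb1 reached the highest value in the table, 13.78, so a change in them could go unseen if the signal was saturated. In whole tissue, fewer cells of a type and less RNA per cell cannot be told apart.

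**Figure D1:**
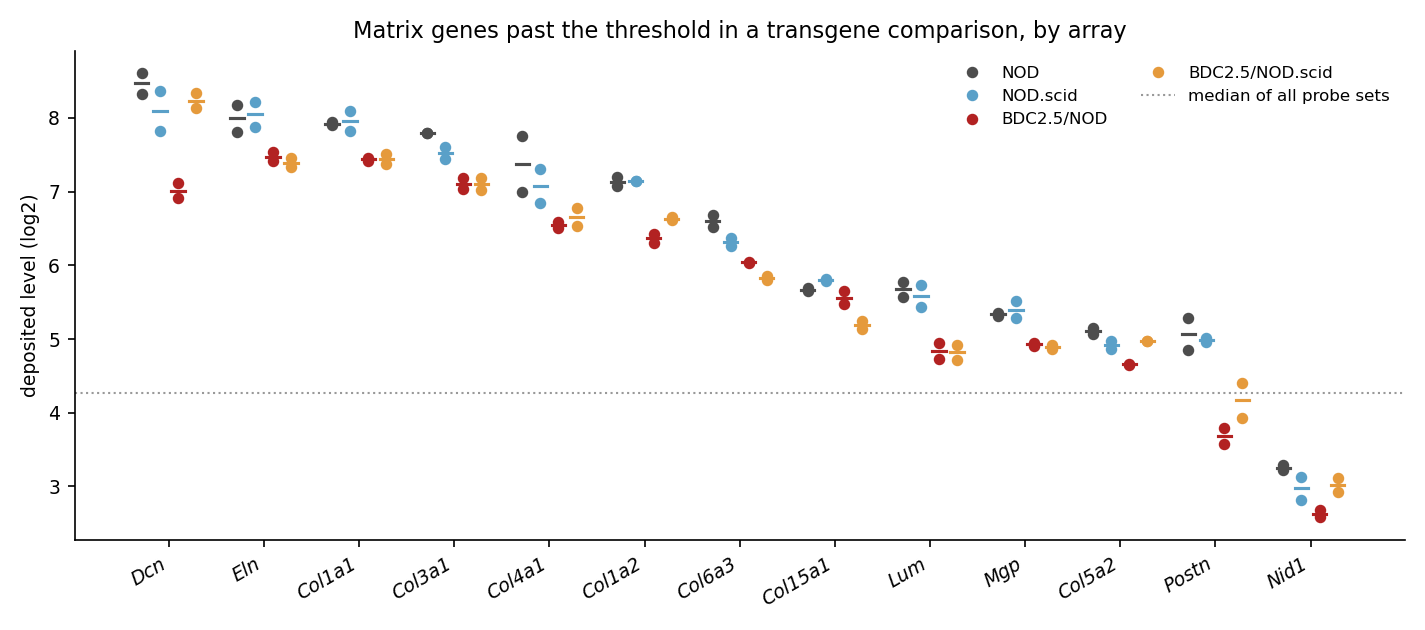
Deposited log2 level (vertical axis) of the 13 matrix genes that passed the test in at least 1 transgene comparison. Each dot is an array, each short bar the mean of the 2 arrays of a group, and the dotted line the median of all probe sets, 4.27. The red and orange dots of the transgenic groups lie below the grey and blue dots for most genes. Dcn is low only in BDC2.5/NOD, at 6.91 and 7.12.

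Genes of the fibril-forming collagens I and III fell in both backgrounds. Of the 8 fibrillar collagen genes, 4 fell with the transgene in NOD and 3 fell in NOD.scid. Col1a2, the alpha 2 chain of collagen I, was at 7.07 and 7.20 in NOD against 6.31 and 6.42 in BDC2.5/NOD, and at 7.14 and 7.15 in NOD.scid against 6.61 and 6.65 in BDC2.5/NOD.scid. All 4 transgenic arrays lay below all 4 arrays without the transgene. The fall was 0.77 ± 0.089 (SE) in NOD, or 1.71-fold, with a limma adjusted p of 0.000253. In NOD.scid the difference was -0.52 ± 0.089, or 1.43-fold, with a limma adjusted p of 0.00344. A second Col1a2 probe set, with a mean of 6.56, did not pass in either background, at -0.24 and 0.14.

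Col3a1 encodes the single chain of collagen III. It read 7.80 on both NOD arrays against 7.18 and 7.03 in BDC2.5/NOD, and 7.61 and 7.44 in NOD.scid against 7.19 and 7.02 in BDC2.5/NOD.scid. The transgenic arrays again all lay below the others. The difference was -0.69 ± 0.098 in NOD (limma adjusted p = 0.0011) and -0.42 ± 0.098 in NOD.scid (limma adjusted p = 0.0221). The 2 dimmer Col3a1 probe sets fell too, by 0.63 and 1.01 in NOD and by 0.80 and 0.91 in NOD.scid. In NOD.scid the adjusted p missed the threshold when BDC2.5/NOD.scid replicate 2 was left out, at -0.34 with a limma adjusted p of 0.161, and when NOD.scid replicate 1 was, at -0.34 and 0.141. It also missed it in a fit of the 2 NOD.scid groups alone (0.0896) and without the 3 arrays on which an actin control was high, at -0.25 (0.0989).

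Col1a1, the alpha 1 chain of collagen I, was at 7.90 and 7.94 in NOD against 7.46 and 7.42 in BDC2.5/NOD, and at 7.82 and 8.09 in NOD.scid against 7.51 and 7.37 in BDC2.5/NOD.scid. No transgenic array reached the lowest array without the transgene. The differences were -0.48 ± 0.10 in NOD (limma adjusted p = 0.0123) and -0.52 ± 0.10 in NOD.scid (0.00753). In NOD it missed the threshold without any 1 of the 4 arrays compared, with limma adjusted p from 0.0639 to 0.121. In NOD.scid it missed the threshold without BDC2.5/NOD.scid replicate 2 (limma adjusted p = 0.0674), without NOD.scid replicate 2 (0.0625) and in a fit of the 2 NOD.scid groups alone (0.052). The second Col1a1 probe set had the same difference of -0.65 in both backgrounds and did not pass, with limma adjusted p of 0.164 and 0.225.

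Col5a2, a chain of collagen V, which sets fibril diameter, fell in NOD only, by 0.46 ± 0.094 with a limma adjusted p of 0.0109. It stood at 5.07 and 5.15 in NOD against 4.65 and 4.66 in BDC2.5/NOD, and at 4.97 and 4.86 in NOD.scid against 4.98 on both BDC2.5/NOD.scid arrays. The low values were those of BDC2.5/NOD, and the NOD.scid difference was 0.06. The NOD call did not hold without BDC2.5/NOD replicate 1 (limma adjusted p = 0.104), BDC2.5/NOD replicate 2 (0.0911) or NOD replicate 2 (0.0689). The other fibrillar chains, Col2a1, Col5a1, Col11a1 and Col11a2, passed in 0 of the 5 comparisons. Col11a1 was a dim probe set whose 4 transgenic arrays all lay above the others, with a difference of 0.27 in each background that did not pass.

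**Figure D2:**
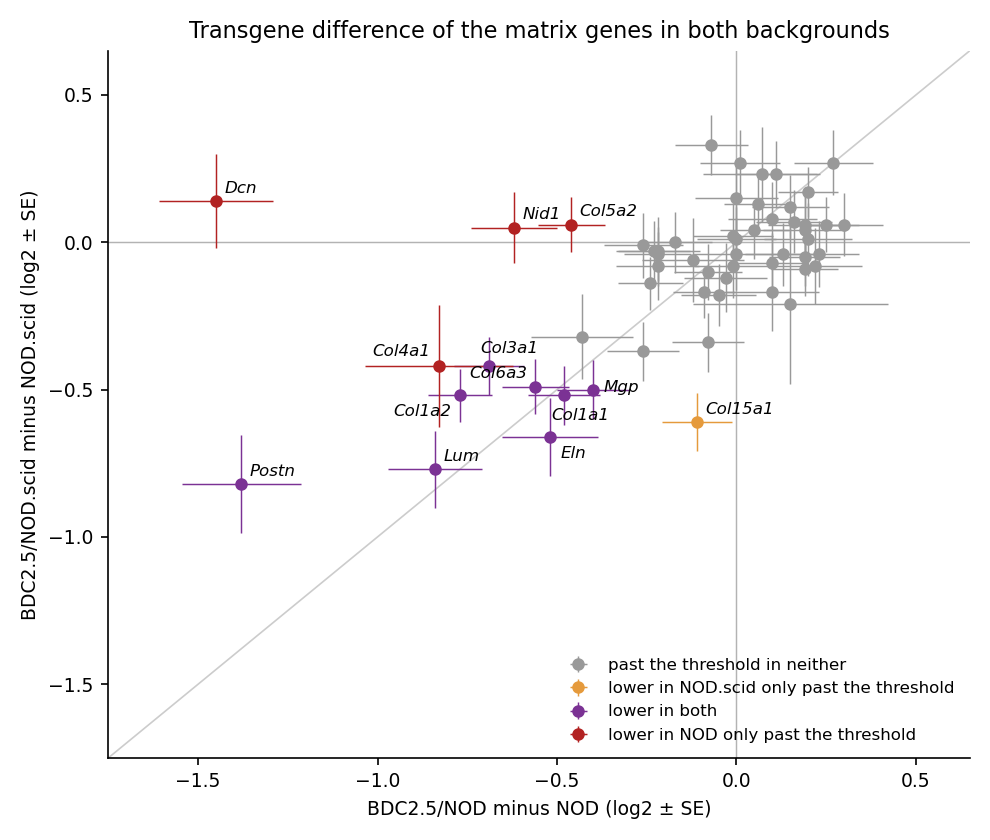
Difference with the transgene in NOD (horizontal axis) against that in NOD.scid (vertical axis), in log2 units with standard errors, for the 57 matrix genes. The diagonal marks equal differences. The 8 purple genes passed in both backgrounds and lie below 0 on both axes. Dcn, Nid1 and Col5a2 sit at the left near 0 on the vertical axis, and Col15a1, at -0.11 and -0.61, is the 1 gene that passed in NOD.scid alone.

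Among the small leucine-rich proteoglycans, decorin and lumican had different patterns, although Dcn and Lum are direct neighbours among the protein-coding genes of chromosome 10. Lum was at 5.57 and 5.78 in NOD against 4.73 and 4.94 in BDC2.5/NOD, and at 5.74 and 5.43 in NOD.scid against 4.92 and 4.72 in BDC2.5/NOD.scid. All transgenic arrays lay below all others. Its difference was -0.84 ± 0.131 in NOD (limma adjusted p = 0.00194) and -0.77 ± 0.131 in NOD.scid (0.00326), and it kept both calls in every alternative tried.

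Dcn was at 8.61 and 8.33 in NOD against 6.91 and 7.12 in BDC2.5/NOD, and at 8.37 and 7.82 in NOD.scid against 8.13 and 8.34 in BDC2.5/NOD.scid. The BDC2.5/NOD arrays were the lowest of the 8, while the BDC2.5/NOD.scid arrays lay within the range of NOD.scid. The fall in NOD was 1.45 ± 0.159 with a limma adjusted p of 0.000172, and the difference in NOD.scid was 0.14 ± 0.159 with a 95% interval from -0.21 to 0.48 and an adjusted p of 0.753. Among transgenic mice, Dcn was 2.33-fold higher with scid than without it, by 1.22 ± 0.159 (limma adjusted p = 0.000486). Without the transgene the scid difference was -0.37, with an adjusted p of 0.305. Bgn, the third proteoglycan measured, lay between 6.38 and 6.69 on all arrays and passed in no comparison.

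Each neighbouring pair of matrix genes was read side by side, since 6 such pairs stood among the 57 genes. Col3a1 and Col5a2 are neighbours on chromosome 1, and in NOD.scid their differences were -0.42 and 0.06. Col4a1 and Col4a2, the pair that makes the common form of collagen IV, had differences of -0.83 and -0.22 in NOD and -0.42 and -0.04 in NOD.scid. Col6a2 and Col6a1 had 0.15 and -0.12 in NOD and -0.21 and -0.06 in NOD.scid, of which 0 passed. The pairs Col9a1 with Col19a1 and Col4a4 with Col4a3 had differences between -0.23 and 0.22. No test of the difference between neighbours was run.

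The matricellular and adhesive proteins held the gene with the next largest fall in NOD. Postn was at 4.85 and 5.28 in NOD against 3.80 and 3.58 in BDC2.5/NOD, and at 4.96 and 5.02 in NOD.scid against 4.41 and 3.93 in BDC2.5/NOD.scid. The 4 transgenic arrays lay below the 4 others, and 3 of the 4 were also under the median of all probe sets. Its difference was -1.38 ± 0.166 in NOD, or 2.60-fold, with a limma adjusted p of 0.000365. In NOD.scid it was -0.82 ± 0.166, or 1.77-fold, with a limma adjusted p of 0.00971. It no longer passed when BDC2.5/NOD.scid replicate 2 was left out, at -0.58 with an adjusted p of 0.105, or NOD.scid replicate 2, at -0.79 and 0.0548.

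Mgp, matrix Gla protein, an inhibitor of calcification, was at 5.36 and 5.31 in NOD against 4.91 and 4.95 in BDC2.5/NOD, and at 5.29 and 5.51 in NOD.scid against 4.92 and 4.87 in BDC2.5/NOD.scid. The groups with and without the transgene did not overlap. The fall was 0.40 in NOD (limma adjusted p = 0.0292), where it missed the threshold without any 1 of the 4 arrays compared (0.0816 to 0.212), and 0.50 in NOD.scid (0.00878), where it did not pass without BDC2.5/NOD.scid replicate 2 (0.0644) or NOD.scid replicate 2 (0.0723), or in a fit of the 2 NOD.scid groups alone (0.0508). Sparc, a collagen-binding glycoprotein, had differences of -0.26 and -0.37 with limma adjusted p of 0.139 and 0.0516. Fn1, fibronectin, and Tnc, tenascin C, passed in 0 of the 5 comparisons.

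Elastin, the core of elastic fibres, was the 1 gene of its class to pass. Eln was at 8.18 and 7.81 in NOD against 7.54 and 7.41 in BDC2.5/NOD, and at 8.22 and 7.88 in NOD.scid against 7.33 and 7.45 in BDC2.5/NOD.scid. The transgenic arrays lay below all others, with differences of -0.52 ± 0.133 in NOD (limma adjusted p = 0.033) and -0.66 ± 0.133 in NOD.scid (0.00951). The NOD call was lost without BDC2.5/NOD replicate 1 (0.135), BDC2.5/NOD replicate 2 (0.236) or NOD replicate 1 (0.256), or with the close BDC2.5/NOD pair averaged to 1 sample (0.205), and the NOD.scid call without BDC2.5/NOD.scid replicate 1 (0.0603) or NOD.scid replicate 1 (0.0884). A second, dim Eln probe set had differences of -0.01 and -0.22 and did not pass. Fbln1, Fbln2, Fbn2 and Lox, the enzyme that crosslinks collagen and elastin, passed in 0 of the 5 comparisons by the probe sets used. A second, dim Lox probe set had an interaction of 0.65 (limma adjusted p = 0.0316) and was higher by 0.55 for scid with the transgene (0.00857).

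Of the 18 other collagens, Col6a3 fell in both backgrounds and Col15a1 in NOD.scid. Col6a3, a chain of the microfibrillar collagen VI, was at 6.52 and 6.68 in NOD against 6.03 and 6.05 in BDC2.5/NOD, and at 6.37 and 6.26 in NOD.scid against 5.86 and 5.80 in BDC2.5/NOD.scid. Its transgenic arrays lay below all others, and its differences were -0.56 ± 0.093 (limma adjusted p = 0.0031) and -0.49 ± 0.093 (0.00714). These calls came just short without BDC2.5/NOD replicate 1 in NOD (0.0531), and without BDC2.5/NOD.scid replicate 2 (0.0529) or NOD.scid replicate 1 (0.057) in NOD.scid. Col6a1 and Col6a2, the chains that join Col6a3 in the same molecule, did not pass.

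Col15a1, a basement membrane zone collagen that yields the fragment restin, was at 5.69 and 5.65 in NOD against 5.65 and 5.47 in BDC2.5/NOD, and at 5.79 and 5.82 in NOD.scid against 5.25 and 5.14 in BDC2.5/NOD.scid. The BDC2.5/NOD.scid arrays were the lowest. Its difference was -0.61 ± 0.097 in NOD.scid (limma adjusted p = 0.00195), kept in every alternative. The interaction for Col15a1, -0.50, had an adjusted p of 0.0627. The other 16 collagens of the class had differences that did not pass in either transgene comparison.

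Basement membrane genes gave few calls. Col4a1, the alpha 1 chain of collagen IV, was at 7.75 and 6.99 in NOD against 6.50 and 6.59 in BDC2.5/NOD, and at 7.31 and 6.85 in NOD.scid against 6.54 and 6.78 in BDC2.5/NOD.scid. The transgenic arrays lay below all others, although the 2 NOD arrays were far apart. The fall in NOD was 0.83 ± 0.206 with a limma adjusted p of 0.0291, which was lost without NOD replicate 1 (-0.44, adjusted p = 0.214), BDC2.5/NOD replicate 1 (0.208) or BDC2.5/NOD replicate 2 (0.141). It was also lost with a robust variance prior (0.123) and with the close BDC2.5/NOD pair averaged to 1 sample (0.193). Col4a2, Col4a3, Col4a4 and Col4a5 passed in 0 comparisons.

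Nid1, nidogen, fell by 0.62 ± 0.119 in NOD with a limma adjusted p of 0.00705, from 3.29 and 3.22 to 2.58 and 2.68. The call was lost without BDC2.5/NOD replicate 1 (limma adjusted p = 0.102), BDC2.5/NOD replicate 2 (0.0518) or NOD replicate 1 (0.0589). It read 3.13 and 2.82 in NOD.scid and 2.92 and 3.12 in BDC2.5/NOD.scid, so those groups overlapped, and every value was below the median of all probe sets. For the laminins, Lamb1 had the largest differences, -0.43 in NOD and -0.32 in NOD.scid, with limma adjusted p of 0.0889 and 0.27. Its 4 transgenic arrays, 3.62 to 4.14, lay below the 4 others, 4.15 to 4.53. The chains of laminins found in most adult basement membranes, Lama5 and Lamc1, did not pass.

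The inhibitors of metalloproteinases, which slow the breakdown of matrix, gave no calls. Timp1, Timp2 and Timp3 passed in 0 of the 5 comparisons. Timp1 was at 8.19 to 8.34 on the 4 arrays without the transgene and 8.40 to 8.48 on the 4 with it. The groups did not overlap, but the differences of 0.20 and 0.17 did not pass, with limma adjusted p of 0.169 and 0.341.

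**Figure D3:**
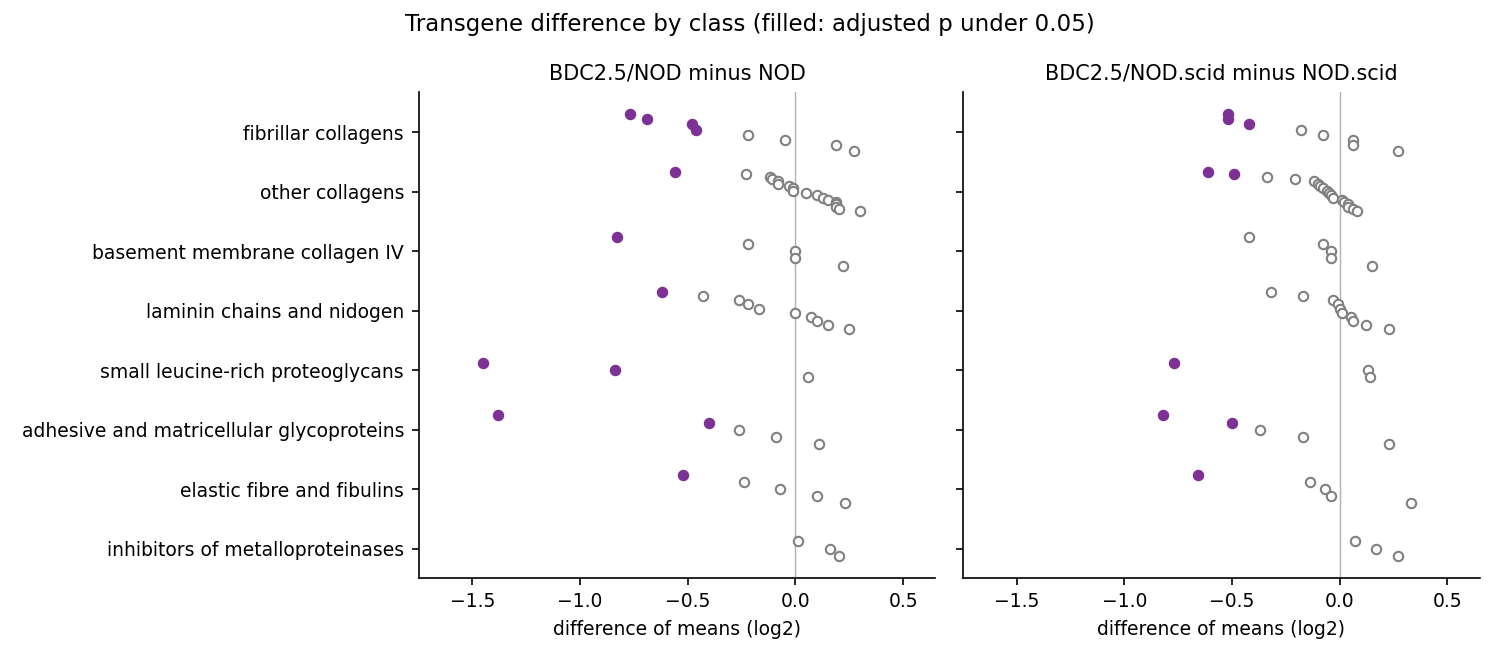
Difference with the transgene (horizontal axis, log2) of each of the 57 matrix genes, in rows by class, for NOD at the left and NOD.scid at the right. Filled dots passed at a limma adjusted p under 0.05. Filled dots stand in every class but the inhibitors in NOD, and all lie below 0. In NOD.scid the collagen IV, laminin and inhibitor rows hold open dots only.

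The genes lower with the transgene made up 21.1% of the 57 in NOD and 15.8% in NOD.scid. Bright probe sets were called lower more often, at 6.75% of all genes above the median level in NOD and 7.08% in NOD.scid, and 11 and 9 of the 38 matrix genes above that level were lower. The median difference over all 57 genes was -0.03 in NOD and -0.038 in NOD.scid, against 0.036 and -0.008 for all genes. The difference was below 0 for 33 of the 57 genes in NOD and 35 in NOD.scid, against 3480 and 4279 of the 8251 genes, and 45 and 48 of the 57 did not pass the test.

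The 2 transgene comparisons have no array in common, but both use the 1 estimate of spread over all 8 arrays, so their calls are not fully independent. The 8 genes that fell in both made up 66.7% of the genes lower in NOD and 88.9% of those lower in NOD.scid. Over all genes, 97 fell in both, which were 25.8% of the 376 lower in NOD and 26.1% of the 372 lower in NOD.scid. All 4 transgenic arrays lay below all 4 others for 12 of the 57 genes, or 21.1%, where 6.02% of all genes did. These 12 were the same 8 with Col4a1, Col14a1, Fbln2 and Lamb1. They lay above for 2 genes, Col11a1 and Timp1, where 5.51% of all genes did. The count in NOD moved from 12 to 5 without BDC2.5/NOD replicate 1, to 6 without BDC2.5/NOD replicate 2 and to 7 without NOD replicate 1, and the count in NOD.scid moved from 9 to 4 without BDC2.5/NOD.scid replicate 2.

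The interaction asked whether the transgene difference depended on scid. It passed above 0 for 3 of the 57 genes, where 2.48% of all genes did, and below 0 for none, where 2.9% did. For Dcn it was 1.59 ± 0.225 with a limma adjusted p of 0.00144. For Nid1 it was 0.66 ± 0.168 (0.044), and for Col5a2 it was 0.52 ± 0.133 (0.0452). The call for Dcn held without each array in turn. That for Col5a2 was lost without any 1 of the 8 arrays, with adjusted p from 0.0514 to 0.182, and that for Nid1 without any of 6, with adjusted p from 0.0831 to 0.203. Both were lost with the close BDC2.5/NOD pair averaged to 1 sample (0.182 for Col5a2 and 0.17 for Nid1), and Nid1 also under quantile normalization (0.063).

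Of the 8 genes that fell in both backgrounds, none passed in the interaction. The 95% intervals of the interaction show how far their 2 differences could part. Postn had 0.55 with an interval from 0.04 to 1.07 and a limma adjusted p of 0.249. Col1a2 had 0.26, from -0.02 to 0.53, and Col3a1 had 0.27, from -0.03 to 0.57. Lum had 0.08, from -0.33 to 0.48, and Col6a3 had 0.07, from -0.22 to 0.36. For Col1a1 it was -0.04, from -0.35 to 0.27, for Mgp -0.10, from -0.41 to 0.21, and for Eln -0.14, from -0.55 to 0.27.

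The scid comparisons gave fewer calls. Without the transgene, 0 of the 57 genes passed in limma, where 0.824% of all genes were higher and 1.9% lower with scid. At an unadjusted limma p under 0.05, 1 of the 57 was higher and 6 were lower, where 597 and 693 of all 8251 genes were. With the transgene, Dcn was higher and Sparc and Col15a1 were lower, where 3.16% of all genes were higher and 6.08% lower. A second Lox probe set, at 0.55 (limma adjusted p = 0.00857), and a further Col18a1 probe set, at -0.39 (0.0377), also passed but are not counted. Sparc was at 6.21 and 6.34 in BDC2.5/NOD and 5.86 and 5.84 in BDC2.5/NOD.scid, a difference of -0.43 ± 0.10 (limma adjusted p = 0.0196). The groups did not overlap. The Col15a1 difference was -0.37 ± 0.097 (0.0357). The calls for Sparc and Col15a1 were lost without any 1 of the 4 transgenic arrays, with adjusted p from 0.0639 to 0.215 and from 0.0587 to 0.322, and with the close BDC2.5/NOD pair averaged to 1 sample (0.139 and 0.182). Col15a1 was also lost under quantile normalization (0.0691). Without NOD.scid replicate 1 or NOD.scid replicate 2, which this comparison does not use but which share the estimate of spread, 5 genes passed instead of 3.

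Genes that process collagen showed a fall of 1 chaperone. Serpinh1 encodes the collagen chaperone of the endoplasmic reticulum, and its group means were 5.84 for NOD, 5.81 for BDC2.5/NOD, 5.89 for NOD.scid and 4.91 for BDC2.5/NOD.scid. BDC2.5/NOD.scid stood below the other 3 groups, with a difference of -0.98 ± 0.101 in NOD.scid (limma adjusted p = 6.32e-05) and an interaction of -0.94 ± 0.142 (0.00244). Crtap, a part of the prolyl 3-hydroxylation complex, was lower by 0.48 in NOD.scid (adjusted p = 0.0134). Of the 16 measured genes for collagen processing and crosslinking, these were the 2 that passed in NOD.scid, and 0 passed in NOD. With the transgene 4.56% of all genes were lower in NOD and 4.51% in NOD.scid. Neither this list nor those below were tested as sets.

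Of 24 matrix proteases, Htra1 was lower by 0.61 in NOD (limma adjusted p = 0.00642) and 0 passed in NOD.scid. Of 50 other matrix proteins, 3 fell and 1 rose in NOD, and 2 fell and 2 rose in NOD.scid. Over all genes, 4.56% were lower and 4.16% higher in NOD, and 4.51% were lower and 2.46% higher in NOD.scid. Vtn, which encodes the plasma and matrix protein vitronectin, fell by 1.51 ± 0.098 in NOD (limma adjusted p = 1.95e-06) and by 0.89 ± 0.098 in NOD.scid (0.000127). Gpc3, a cell surface proteoglycan, fell by 0.76 in NOD, and Mfap2, a microfibril protein, fell by 0.56 in NOD.scid. Fgl2, a fibrinogen-like protein also made by leukocytes, rose by 0.54 and 1.43, and Srgn, the proteoglycan of leukocyte granules, rose by 0.72 in NOD.scid.

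Of 18 matrix receptors, Itgb4, Dag1 and Cd47 fell in NOD by 0.38, 0.33 and 0.50, and Itga6, an integrin chain that binds laminin, fell by 0.85 in NOD.scid (limma adjusted p = 0.0055). Of 30 genes of the TGF-beta pathway, which drives collagen synthesis in fibroblasts, 3 fell and 1 rose in NOD, and 2 fell and 1 rose in NOD.scid. The shares of all genes were 4.56% lower and 4.16% higher in NOD, and 4.51% lower and 2.46% higher in NOD.scid. In NOD, Smad1, Smad4 and Tsc22d1 fell by 0.51, 0.56 and 0.52 and Skil rose by 0.37. In NOD.scid, Ski and Id3 fell by 0.43 and 0.40 and Tgif1 rose by 0.68. Skil had 0.36 in NOD.scid and did not pass (limma adjusted p = 0.0617), and neither did Tgif1 in NOD, at -0.18 (0.352).

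Markers of cell types were read on the same arrays. The 14 fibroblast and stellate markers, which include 4 of the matrix genes, summed on the linear scale to 1086 on both NOD arrays against 654 and 669 in BDC2.5/NOD, and to 892 and 1011 in NOD.scid against 911 and 917 in BDC2.5/NOD.scid. Without those 4 genes, the other 10 summed to 308 to 354, 295 to 301, 314 to 317 and 342 to 372 in the same order of groups. Of these 10, Pdgfra fell by 0.44 in NOD (limma adjusted p = 0.0221) and had an interaction of 0.57 (0.0462), 0 passed in NOD.scid, and 4 of the 10 lay above the median level. The part of fibroblast number in the results was not tested.

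Other markers moved with the transgene as well. Of all genes, 4.56% were lower and 4.16% higher in NOD, and 4.51% were lower and 2.46% higher in NOD.scid. Of 8 macrophage genes, 6 rose in NOD.scid and 0 passed in NOD, with summed levels of 391 to 428 for NOD.scid, 675 to 762 for BDC2.5/NOD.scid, 349 to 392 for NOD and 404 to 406 for BDC2.5/NOD. Of 5 beta cell genes, 3 fell in NOD and 2 in NOD.scid, and their sum was 3028 and 3152 on the NOD arrays against 1835 and 1901 in BDC2.5/NOD, and 3276 and 3665 in NOD.scid against 1219 and 1357 in BDC2.5/NOD.scid. This linear sum mostly follows Ins2, with group means from 10.27 to 11.73 against 4.07 to 5.44 for Iapp. Pdx1 and G6pc2 passed in neither background. Of 2 red cell genes, Hba-a1 fell by 0.64 in NOD (limma adjusted p = 0.000735) and by 1.16 in NOD.scid (2.68e-06), and Alas2 fell by 0.61 in NOD.scid (0.00505). Their sum was 1984 to 2235 for NOD, 1344 to 1385 for BDC2.5/NOD, 4200 to 4368 for NOD.scid and 1866 to 2000 for BDC2.5/NOD.scid. That sum mostly follows Hba-a1, with group means from 10.38 to 12.04 against 5.19 to 6.17 for Alas2. Of 3 fat cell genes, Adipoq, a hormone gene, fell by 1.10 in NOD (limma adjusted p = 0.000893). Fabp4 and Lep did not pass there, at -0.05 and 0.09, and 0 of the 3 passed in NOD.scid. None of 7 smooth muscle and pericyte, 8 endothelial, 4 mesothelial or 5 lymphocyte and lymph node markers passed in either background. The part of these cells in the matrix results was not tested.

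A control on the arrays also moved with some matrix genes. The middle beta-actin control was at 9.35 on NOD replicate 1, 9.55 on NOD.scid replicate 1 and 9.26 on BDC2.5/NOD.scid replicate 2, and at 6.95 to 7.74 on the other 5 arrays. Of the 57 genes, 3 (5.26%) were more than 0.2 higher on the high array in each of those 3 groups, where 1.25% of all genes were. Col6a2 was higher by 0.95, 0.63 and 0.54, Col4a1 by 0.77, 0.46 and 0.24, and Dcn by 0.28, 0.54 and 0.21. The smallest values of Col4a1 and Dcn lay just over 0.2, so the count of 3 depends on that cutoff. Among arrays of low actin control, which leave 1 NOD array, the NOD difference was -0.44 for Col4a1, -1.31 for Dcn, -1.59 for Postn, -0.83 for Col1a2 and -0.69 for Col3a1. In NOD.scid the differences on low and high arrays were -0.54 and -0.49 for Col1a2, -0.61 and -1.03 for Postn, -0.51 and -1.03 for Lum, -0.25 and -0.59 for Col3a1, and 0.31 and -0.03 for Dcn. Each of these NOD.scid values is 1 array minus 1 array. The ratio of 3′ to 5′ control signal, a sign of RNA quality, was 4.904 and 3.526 for actin on the NOD arrays against 3.156 and 3.167 in BDC2.5/NOD, and 3.942 and 3.292 in NOD.scid against 3.154 and 4.135 in BDC2.5/NOD.scid. For Gapdh it was 2.427 on NOD replicate 1 and 1.662 to 1.861 on the other 7 arrays. The part of RNA quality in the results was not tested.

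**Figure D4:**
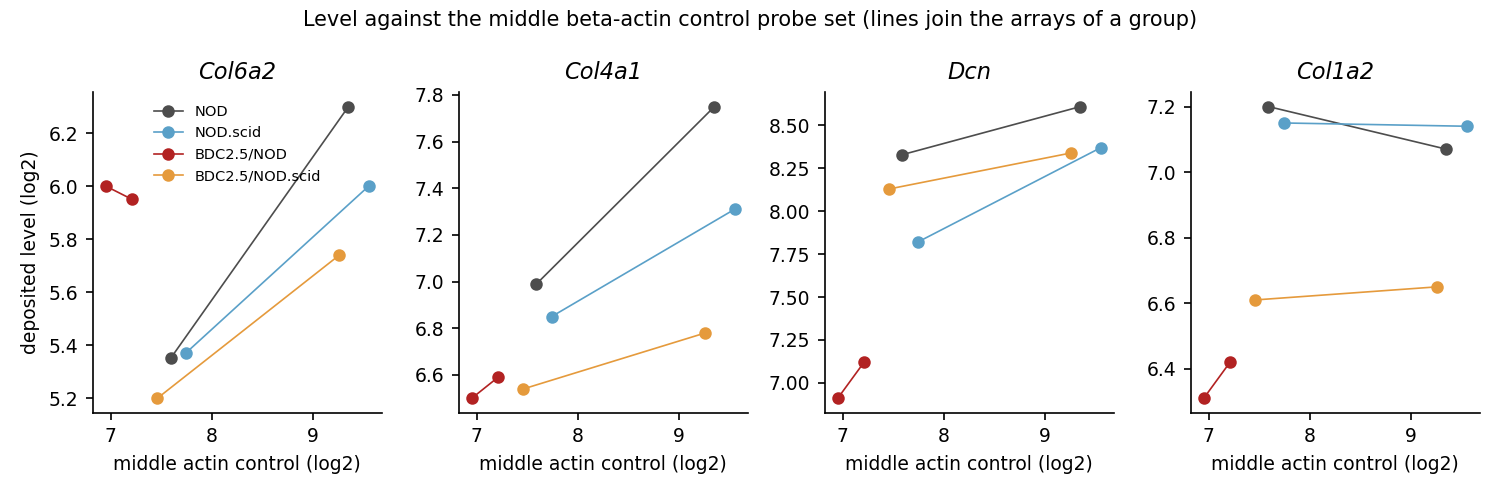
Deposited log2 level of 4 matrix genes (vertical axes) against the level of the middle beta-actin control (horizontal axes). Each dot is an array and a line joins the 2 arrays of a group. Lines of Col6a2, Col4a1 and Dcn rise to the right in the 3 groups that span the control, while those of Col1a2 stay nearly level.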

How the data were processed

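The deposited values of 8 Affymetrix arrays were used. Per the labels, targets were made from about 10 ug of total RNA extracted with guanidine isothiocyanate. No normalization or probe summary by the authors is named in the labels. The deposited table held log values taken as log2, since the highest was 13.78. Array medians were 4.24 to 4.30, so no scaling was added. Of 12488 probe sets, 66 controls were left out and 12422 tested. The platform annotation gave 1 symbol for 10833, several for 396 and none for 1193, and 10817 matched GRCm38.p6, where 0 changed. Of the 57 matrix genes, 21 had more than 1 probe set, 85 in all.

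All 8 arrays entered 1 fit of group means in limma 3.58.1, run in R 4.3.3 (two-sided moderated tests with a variance trend, 4 residual degrees of freedom, prior 8.07), with Benjamini-Hochberg adjustment over all probe sets. The number of arrays limits the precision. Tables used pandas 2.3.3 and plots matplotlib 3.10.9. The fit was tested on simulated data, in which recovery was not required for changes smaller than a doubling, such as most of those described here.

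The matrix genes and the lists of related genes and markers were chosen with earlier results of these data known. Genes were named by rule: Dcn, Postn, Col1a2 and Col3a1 always, those past the threshold in the interaction, and up to 8 per direction and comparison with the largest change, no overlap between groups and a higher mean above the median level; up to 4 per list came by smallest p. Col5a2 and Nid1 are also described in NOD, and Mgp and Col1a1 in both backgrounds, beside the rule; genes named for neighbouring or non-overlapping values were chosen after those values were seen. Alternatives covered normalization, filter, variance prior, arrays, weights, threshold, probe set, actin control, a term for the title number and each array left out.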

Additional observations from a re-analysis of the deposited data

Results flagged for a closer look

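The transgene difference differed between NOD and NOD.scid, by a test of the interaction, for 3 matrix genes. The NOD.scid difference minus the NOD difference was 1.59 on the log2 scale for Dcn, 0.66 for Nid1 and 0.52 for Col5a2. For Dcn all 20 alternatives kept the call, with values from 1.32 to 1.86. For Nid1, a dim probe set, 10 of 19 alternatives lost it, and for Col5a2 11 of 20 did. Groups of 2 arrays were not screened for single outlying arrays.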

How the results depend on the processing

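Of 24 gene results compared across the alternatives, 10 kept their call in each one, 13 lost it in at least 1 and 1 reversed. Those that kept it were Col1a2 and Lum with the transgene in both backgrounds, Col3a1, Dcn and Postn in NOD, Col15a1 in NOD.scid, and Dcn for scid with the transgene and for the interaction. The probe set alternative took the one of largest SD, so it did not reach the second Col1a2 probe set. That probe set did not pass in either background, at -0.24 and 0.14. Lum, Dcn, Postn and Col15a1 had 1 probe set each, so this alternative could not change them. The reversed result was Dcn with the transgene in NOD.scid, which went from 0.14 to -0.13 without NOD.scid replicate 2; neither value passed, its values without 1 array ranged from -0.13 to 0.41, and the cause was not tested. Without the arrays of high actin control it was 0.31 and passed in limma (adjusted p = 0.0287).

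The counts of genes past the threshold were 12, 9, 0, 3 and 3 for the transgene in NOD, the transgene in NOD.scid, scid without the transgene, scid with it, and the interaction. A stricter threshold of 0.01 gave 7 for the transgene in NOD, 1 for scid with the transgene and 1 for the interaction, by its construction. For the transgene in NOD.scid, Col3a1, with a limma adjusted p of 0.0221, no longer passed at 0.01. Leaving out the 3 arrays of high actin control gave 19, 14, 11, 8 and 8, but that fit rests on the spread of the BDC2.5/NOD pair alone. A term for the actin control gave 2 for scid without the transgene, 6 for scid with it and 6 for the interaction. Counting the BDC2.5/NOD arrays as 1 sample gave 6 for the transgene in NOD, 1 for scid with the transgene and 1 for the interaction. Array weights and the probe set of largest SD each gave 5 for scid with the transgene. With 1 array left out in turn, the counts ranged from 5 to 13, 4 to 9, 0 to 1, 1 to 5 and 1 to 2; a lone array was then assumed to vary like the other groups. The share of all genes past the threshold was not counted under any alternative. A change in these counts can therefore not be told from a change over all genes. Where no cause is named, the cause was not tested.

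Same-numbered arrays of 2 groups deviated together with r from -0.322 to 0.287, which cannot settle if the title number paired the arrays. The 0.287 was for NOD with NOD.scid, where the actin control was high on replicate 1 of both. The -0.322 was for NOD with BDC2.5/NOD.scid, where it was high on replicate 2 of the latter. With the title number as a replicate block, the interaction count was 1, and the others were 11, 9, 0 and 2. The limma adjusted p was then 0.0794 for the interaction of Col5a2, 0.0746 for that of Nid1 and 0.0525 for Col15a1 in scid with the transgene. Depth does not apply to arrays, and signal over background was not given with these values, so dim genes such as Nid1 have the least certain values.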
